A study of Mus musculus with 11 samples.

Results

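The genes described here are 44 mouse genes that type I interferon is known to induce and whose products mostly act against viruses. They were listed by name under a rule that uses no measured values, although earlier results of these data were known when the list was made, and are 44 of the 52143 genes in the table of transcript levels. The names stood on 46 rows, because Ifi47 was listed under 3 gene identifiers. The other 2 Ifi47 rows did not exceed 0.356 TPM (transcript level scaled to length and library total) in any library used and were not tested. All 44 genes passed the filter for testing, under which 2 or more libraries had to reach 1 in log2(TPM + 1), and 13711 genes passed it in all. A gene could pass through its LPS libraries alone.

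The study asked how Girdin, also called GIV and encoded by Ccdc88a, shapes the response of macrophages to lipopolysaccharide (LPS), the component of the outer membrane of Gram-negative bacteria that Toll-like receptor 4 (TLR4) senses. RAW cells, a mouse macrophage-like line, carried a short hairpin RNA against GIV (shGIV) or a control hairpin (shC). Total RNA was sequenced from 3 libraries of shGIV cells with LPS at 100 ng/ml for 5 h, 1 library of shC cells with the same LPS (replicate 2), 3 libraries of shGIV cells without LPS and 2 libraries of shC cells without LPS (replicates 1 and 3). All cells therefore carried a hairpin, and all were RAW cells. The labels do not say whether a line was a clone or a pool, nor whether replicates were separate cultures, so p-values measure only the spread between these samples. The model took the lone library of shC cells with LPS to vary as libraries of the other groups do, and every value that rests on it is a single measurement.

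Replicate 2 of the shC cells without LPS was left out because it stood apart in composition. Protein-coding genes held 7.81% of its TPM, against 74.1% to 81.7% in the 9 libraries used, and Mir6236 held 57.8%, against 3.79% to 8.78%. The 44 genes together reached 340 TPM in it, against 2742 and 2984 TPM in the other shC libraries without LPS. As a share of protein-coding TPM they held 0.435% in it, against 0.365% and 0.376% in those libraries, so the lower sum depends on the scale. Ccdc88a itself was lower in shGIV than in shC cells by a mean log2 difference of -0.63 over both times (exact two-sided permutation test of the lines within each time, p = 0.025, the smallest that the 40 assignments allow). By limma it was not called at either time, at -0.75 with LPS (adjusted p = 0.0681) and -0.50 without LPS (adjusted p = 0.232). With the left-out library it was -0.27 (same exact permutation test, p = 0.588). Depth per library is unknown, since TPM hold no read totals. Summed macrophage markers were 9688 to 9992 TPM in shGIV cells with LPS, 11753 TPM in shC cells with LPS, 16891 to 17431 TPM in shGIV cells without LPS and 18071 to 18435 TPM in shC cells without LPS, and each of the 8 reached 1 TPM in at least some libraries. Lyz2 made up most of this sum, at 7974 to 8214 TPM with LPS and 14648 to 15085 TPM without LPS in shGIV cells. In shC cells Lyz2 had 9538 TPM with LPS and 15831 and 15913 TPM without LPS. By limma, 4 of the 8 were called higher and 3 lower with LPS in shGIV cells, and 5 higher and 2 lower in shC cells. All 5 T cell, 3 B cell, 4 fibroblast and 4 epithelial markers, and 2 of 3 endothelial markers, were under 1 TPM in every library used. Of 3 plasmacytoid dendritic cell markers, Siglech was under 1 TPM throughout, and their sum was 26.8 to 29.4 TPM in shGIV cells with LPS, 33.0 TPM in shC cells with LPS, 18.1 to 19.7 TPM in shGIV cells without LPS and 19.4 to 20.1 TPM in shC cells without LPS. Tcf4 made up most of that sum, at 25.4 to 27.9 TPM in shGIV cells and 31.8 TPM in shC cells with LPS. Ccr9 had at most 1.51 TPM in the libraries used. Both Tcf4 and Ccr9 were called higher with LPS in each line by limma.

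Type I interferon is secreted by cells that sense microbes, and it acts through the receptor chains Ifnar1 and Ifnar2 on the same and neighbouring cells. The receptor activates the kinases Jak1 and Tyk2, which phosphorylate Stat2 and related factors. With Irf9 these form the complex ISGF3, which binds the interferon-stimulated response element (ISRE) in the promoters of its target genes. In macrophages, LPS reaches this route through TLR4, the adaptor Ticam1 and the kinase Tbk1, which activate Irf3 and the interferon beta gene Ifnb1. The induced proteins bind or cut viral RNA, tag or trap viral proteins, or block entry and budding.

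Promoter sequence was looked at because all 44 genes moved together with LPS. The promoter table of RefSeq (GRCm38.p6), which gives 250 bases before to 50 after each start, held 35 of the 44 genes. The other 9 were Parp9, Rtp4, Ifi204, Usp18, Oas2, Parp14, Mx1, Mx2 and Tor3a. The ISRE core GAAANNGAAA, searched on both strands, was found in 11 of these 35 genes (31.4%), against 1079 of the 27025 genes in the whole table (3.99%). The element GAS, TTCNNNGAA, was found in 7 (20.0%), against 9.55% of all genes, and the kappa B motif in 4 (11.4%), against 5.14%. There were 21 ISRE core matches, overlapping ones counted separately, and 15 of them lay within 150 bases before the start. The sequences run 5′ to 3′ along the strand of the gene, with the core matches in capitals, and are shown because they carry the element named for this response.

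The sites, each with 6 bases on either side, were as follows for 5 genes that span the range of LPS responses.
Ifit1 (first of 2): cttcagTTTCACTTTCcagtct
Ifit1 (the other): tctcagTTTCAGTTTCtcactg
Rsad2: tccaacTTTCATTTTCagaaaa
Oas1a (first of 2): tctcggGAAATGGAAActgaaa
Oas1g (first of 2): tctcggGAAATGGAAActgaaa
Ifitm3 (first of 2): attcagGAAAAGGAAActtctg
The Ifit1 sites lie on chromosome 19 at chr19:34640779-34640800 and chr19:34640798-34640819, and their letters read TTTC because the core is on the other strand. The Rsad2 site is at chr12:26456557-26456578. The printed sites of the neighbouring paralogs Oas1a (chr5:120907530-120907551) and Oas1g (chr5:120887616-120887637) have the same letters. The Ifitm3 site (chr7:141010727-141010748) lies just after the start.

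Upstream windows of 250 bases are given for Isg15 (chr4:156200819-156201068, minus strand), which holds 3 overlapping cores, and for Rsad2 (chr12:26456453-26456702, minus strand), which had the largest response of the 44.
Isg15: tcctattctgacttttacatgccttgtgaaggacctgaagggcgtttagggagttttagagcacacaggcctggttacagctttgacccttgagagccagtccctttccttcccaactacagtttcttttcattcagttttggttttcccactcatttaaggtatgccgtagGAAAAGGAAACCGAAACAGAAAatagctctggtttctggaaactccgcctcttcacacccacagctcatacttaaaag
Rsad2: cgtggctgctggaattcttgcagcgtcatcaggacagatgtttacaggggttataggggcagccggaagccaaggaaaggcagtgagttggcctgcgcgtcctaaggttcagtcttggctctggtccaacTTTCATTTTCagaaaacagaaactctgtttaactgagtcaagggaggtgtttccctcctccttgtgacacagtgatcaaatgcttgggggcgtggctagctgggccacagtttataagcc
Among the 35 genes, the 11 with a core had a median LPS response of 2.76 in shGIV cells and 2.64 in shC cells (log2 of TPM + 1), and the 24 without one had 3.25 and 3.27. The genes with a core ranged from 0.98 for Ifitm3 to 7.45 for Rsad2 in shGIV cells, so both ends of the set held the motif. A match is a string of letters in this window and was not measured as a bound site.

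With LPS, every one of the 44 genes was higher in shGIV cells, and every one was higher in shC cells. In shGIV cells the log2 changes ran from 0.98 (Ifitm3) to 7.45 (Rsad2), with a median of 3.25, and in shC cells from 1.07 to 7.45, with a median of 3.27. Of all genes tested, 15.8% were called higher and 59.7% lower in shGIV cells, and 14.8% were called higher and 44.1% lower in shC cells (limma with Benjamini-Hochberg adjustment over 13711 genes, adjusted p under 0.05). The median of all genes was -0.54 in shGIV cells and -0.40 in shC cells. Under TMM scaling those medians were -0.06 and -0.02, the calls over all genes were 4305 higher and 4883 lower in shGIV cells and 3577 higher and 3649 lower in shC cells, and all 44 members were still called higher in both. The members' adjusted p-values were 7.50e-10 to 2.78e-06 in shGIV cells and 2.07e-08 to 5.49e-05 in shC cells. In every member the libraries with LPS lay above all those without it, in both lines, as did 16.7% of all genes in shGIV cells and 24.6% in shC cells (61.8% and 62.9% lay below). In shGIV cells 21 members rose at least 10-fold and 38 at least 4-fold, and in shC cells 20 and 38 did. With the left-out shC library in the model, all 44 were still higher, and 32 were called in shGIV cells and 20 in shC cells.

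**Figure D1:**
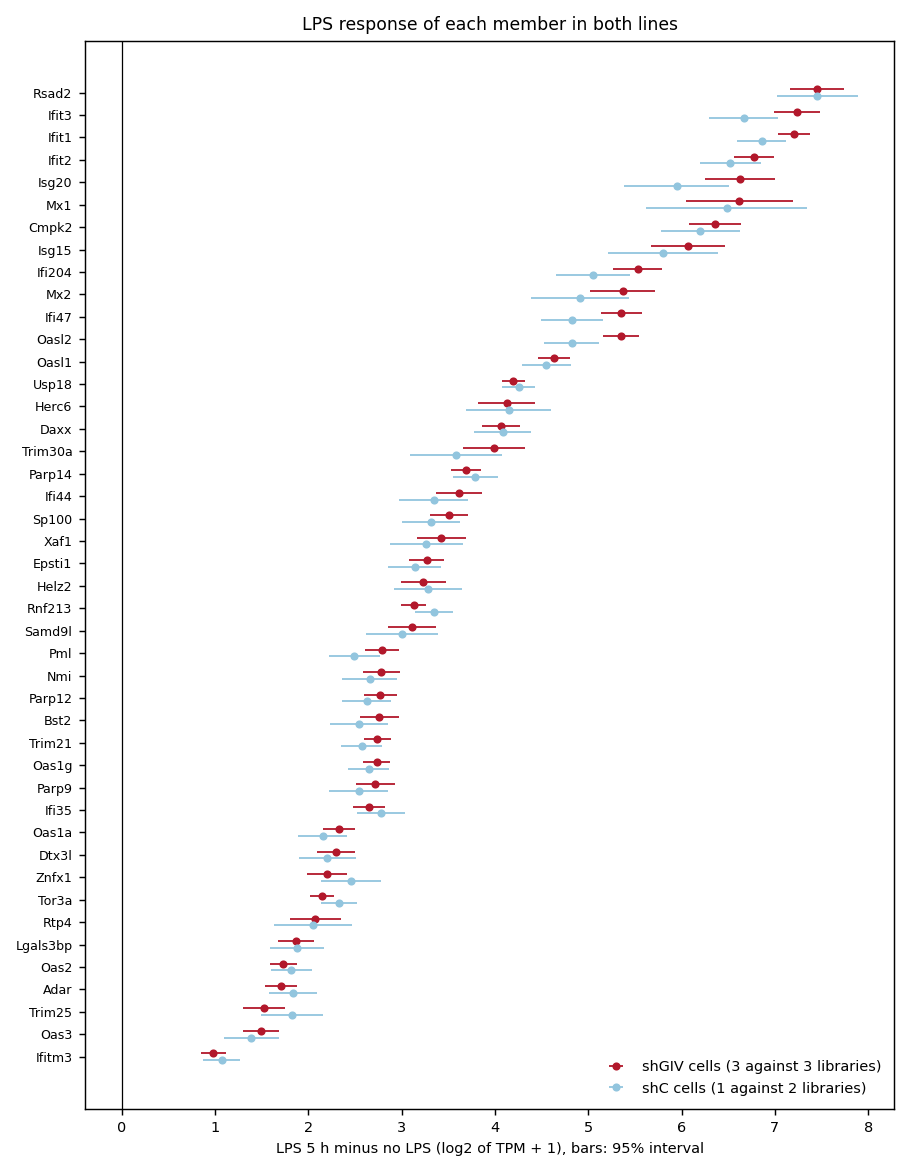
LPS response of each of the 44 genes, as the difference in log2(TPM + 1) between 5 h of LPS and no LPS, with 95% intervals from limma; red is shGIV cells (3 against 3 libraries) and light blue shC cells (1 against 2). All intervals lie above 0, and the genes run from Rsad2 at the top to Ifitm3 at the bottom.

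The summed level of the 44 genes was 23146 ± 412 TPM in shGIV cells with LPS (SD, n = 3), 22751 TPM in the shC library with LPS, 2835 ± 79.4 TPM in shGIV cells without LPS (SD, n = 3) and 2863 ± 171 TPM in shC cells without LPS (SD, n = 2). This was 2.31% of all TPM in shGIV cells and 2.28% in shC cells with LPS, and 0.284% in shGIV cells and 0.286% in shC cells without it. The sum was 8.16 times as high with LPS in shGIV cells and 7.95 times in shC cells. Because each library pools the RNA of many cells, more RNA per cell and more cells that express a gene cannot be told apart. In each LPS library 42 members reached 100 TPM, and in each library without LPS 3 or 4 did.

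**Figure D2:**
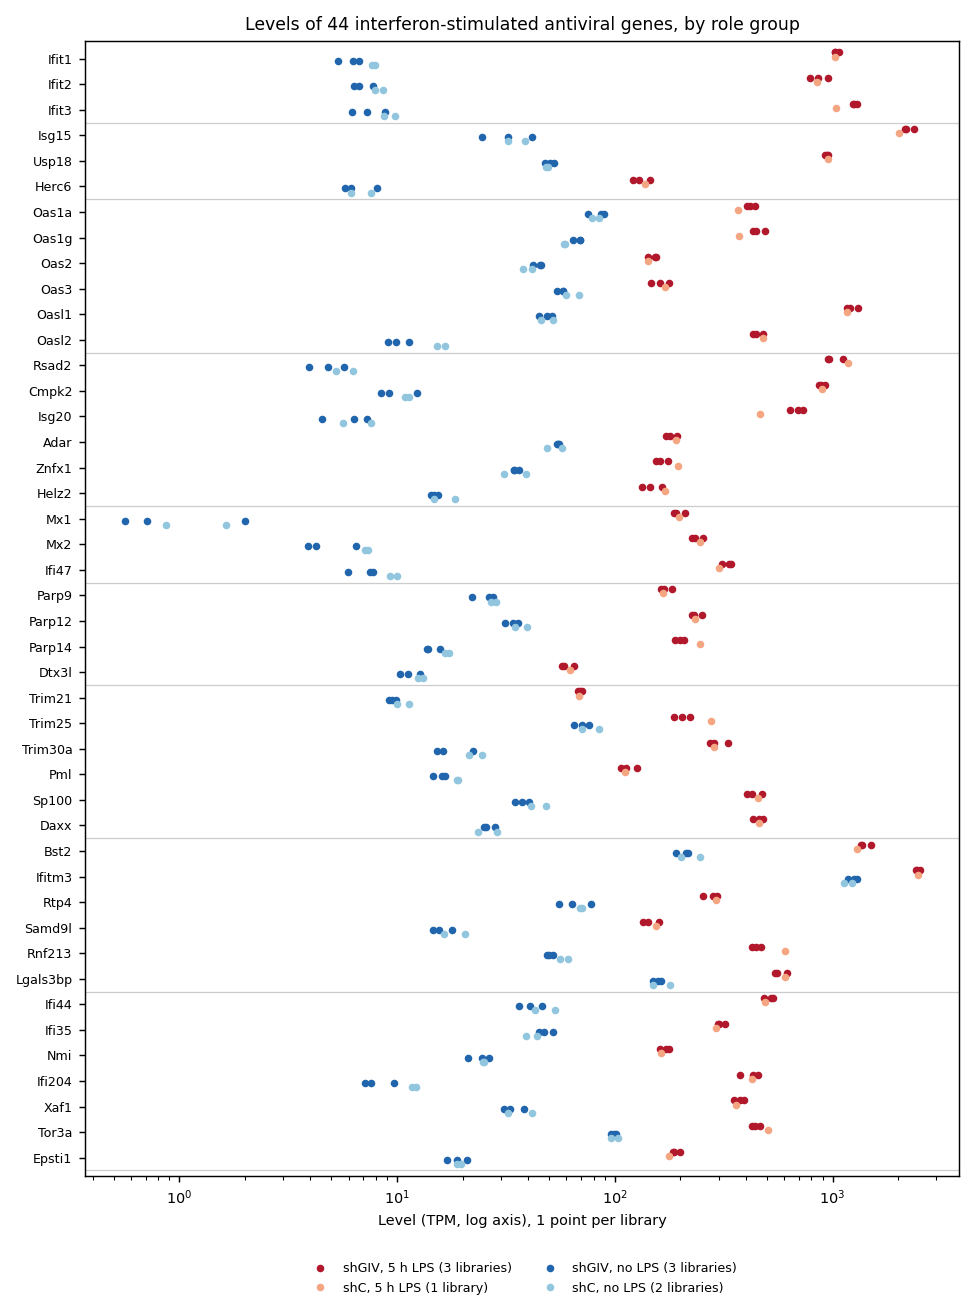
Level of each member in each of the 9 libraries (TPM, log axis), ordered by role group, with 1 point per library; red and orange are shGIV and shC cells with LPS, dark and light blue shGIV and shC cells without LPS. The red and orange points lie to the right of the blue ones in every row, with the smallest gap at Ifitm3 and the widest at Rsad2.

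Among the IFIT proteins, Ifit1 binds viral RNA that lacks the cap modifications of the host, and the 3 IFIT genes gave some of the largest responses. Ifit1 had 1067, 1026 and 1029.8 TPM in shGIV cells with LPS and 1021 TPM in shC cells with LPS. It had 6.67, 6.28 and 5.33 TPM in shGIV cells and 7.93 and 7.7 TPM in shC cells without LPS. The 4 LPS libraries lay close together and far above the others, and the shGIV libraries without LPS lay below both shC libraries. Ifit1 rose by 7.20 ± 0.07 in shGIV cells and by 6.86 ± 0.11 in shC cells (log2, ± SE; adjusted p = 7.50e-10 and 2.07e-08). Ifit3 had 1236, 1258 and 1298 TPM in shGIV cells with LPS, 1036 TPM in shC cells with LPS, 8.77, 7.29 and 6.23 TPM in shGIV cells without LPS and 9.77 and 8.72 TPM in shC cells without LPS. Its 3 shGIV libraries with LPS lay above the shC library, and the groups without LPS overlapped. Ifit3 rose by 7.24 ± 0.11 in shGIV cells and by 6.66 ± 0.16 in shC cells (adjusted p = 2.73e-09 and 9.74e-08). Ifit3 shares 61.8% of its 31-base words with its paralog Ifit3b, so reads may have been split between them; the levels of both summed rose by 7.32 in shGIV cells and 6.76 in shC cells. Ifit2 had a smaller estimate than both in each line, with a rise of 6.77 ± 0.09 in shGIV cells and 6.52 ± 0.14 in shC cells.

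Isg15 is a ubiquitin-like protein, Herc6 is the main ligase that attaches it in the mouse, and Usp18 removes it and also dampens interferon receptor signalling. Isg15 had 2147, 2362 and 2179.9 TPM in shGIV cells with LPS, 2026 TPM in shC cells with LPS, 41.6, 32.5 and 24.6 TPM in shGIV cells without LPS and 32.5 and 38.6 TPM in shC cells without LPS. After Ifitm3 it was the most abundant member with LPS in both lines. It rose by 6.07 ± 0.17 in shGIV cells and by 5.80 ± 0.25 in shC cells (log2, ± SE; adjusted p = 4.49e-08 and 1.40e-06). Usp18 reached 937 ± 15.5 TPM in shGIV cells with LPS (SD, n = 3), against 50.2 ± 2.57 TPM without it. Herc6 stayed far lower, at 132 ± 11.7 TPM in shGIV cells with LPS, against 6.66 ± 1.24 TPM without it.

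The oligoadenylate synthetases make short 2-5A chains when they bind double-stranded RNA, and the Oasl genes encode related proteins. The 6 genes, all on chromosome 5, split by response. Oasl1 and Oasl2 rose by 4.63 ± 0.08 and 5.35 ± 0.08 in shGIV cells, and by 4.55 ± 0.11 and 4.82 ± 0.13 in shC cells. The other 4 rose by 1.49 (Oas3) to 2.73 (Oas1g) in shGIV cells and by 1.39 to 2.64 in shC cells. The mean resting level of each of those 4 was at least 44.4 TPM in shGIV cells, that of Oasl1 was 48.5 TPM, and Oasl2 had 11.3, 9.89 and 9.13 TPM there. The resting level therefore did not separate Oasl1 from the 4 genes with smaller responses. Oasl2 had 481, 443 and 431 TPM in shGIV cells with LPS and 479 TPM in the shC library with LPS, which lay within the shGIV range. Oas1a and Oas1g share 68.7% of the 31-base words of Oas1a and may exchange reads. Their summed level was 849 to 931 TPM in shGIV cells with LPS, 739 TPM in shC cells with LPS, 139 to 158 TPM in shGIV cells without LPS and 137 to 144 TPM in shC cells without LPS.

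Among the enzymes of nucleotides and RNA, Rsad2 (viperin, which makes a chain-terminating nucleotide) had 1112, 957 and 964 TPM in shGIV cells with LPS and 1181 TPM in shC cells with LPS. Without LPS it had 5.7, 4.84 and 3.93 TPM in shGIV cells and 6.27 and 5.25 TPM in shC cells. It rose by 7.45 ± 0.12 in shGIV cells and by 7.45 ± 0.19 in shC cells (adjusted p = 4.46e-09 and 1.07e-07), the largest response of the 44 in both. Its neighbour on chromosome 12, Cmpk2, a mitochondrial nucleotide kinase, rose by 6.36 ± 0.12 and 6.20 ± 0.18. Isg20, a 3′ to 5′ exonuclease of RNA, rose by 6.63 ± 0.16 in shGIV cells and 5.95 ± 0.24 in shC cells. The other 3 genes of this group changed less, Helz2 by 3.23 ± 0.10, Znfx1 by 2.20 ± 0.09 and Adar, which turns adenosine to inosine in double-stranded RNA, by 1.71 ± 0.07 in shGIV cells.

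The dynamin-like GTPases Mx1 and Mx2, which bind incoming viral nucleoproteins, were among the members with low resting levels, and Mx1 had the lowest. Mx1 had 211, 188 and 191 TPM in shGIV cells and 198 TPM in shC cells with LPS. Without LPS it had 2.01, 0.563 and 0.714 TPM in shGIV cells and 0.868 and 1.65 TPM in shC cells, levels at which the added 1 TPM shrinks a log2 change. It rose by 6.62 ± 0.25 in shGIV cells and by 6.48 ± 0.37 in shC cells (adjusted p = 1.88e-07 and 5.36e-06), with the widest error of the set. Mx2, annotated as a polymorphic pseudogene in GENCODE M21, rose by 5.37 ± 0.15 and 4.91 ± 0.22. Ifi47, an immunity-related GTPase, rose by 5.35 ± 0.10 and 4.83 ± 0.14.

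The PARP family genes, whose products attach ADP-ribose to proteins, and Dtx3l, a ubiquitin ligase that partners Parp9, rose by 2.30 to 3.69 in shGIV cells and by 2.20 to 3.79 in shC cells. Parp14 led the group, with 208, 199.6 and 188 TPM in shGIV cells with LPS, 247 TPM in shC cells with LPS, 15.7, 13.9 and 13.7 TPM in shGIV cells without LPS and 16.7 and 17.4 TPM in shC cells without LPS. The shC library with LPS lay above all 3 shGIV libraries. Parp9 (plus strand) and Dtx3l (minus strand) overlap on chromosome 16, and Parp9 shares 8.54% of its 31-base words with Dtx3l. Their reads may mix if strand was not used in counting, which the sources used here do not give. Their summed level was 220 to 248 TPM in shGIV cells with LPS, 228 TPM in shC cells with LPS, 32.3 to 40.3 TPM in shGIV cells without LPS and 40.3 to 40.8 TPM in shC cells without LPS.

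The ubiquitin ligases of the TRIM family and the nuclear body proteins Pml, Sp100 and Daxx rose by 1.52 to 4.07 in shGIV cells and by 1.82 to 4.08 in shC cells. Daxx, a histone chaperone of these bodies, had 459, 481 and 430.1 TPM in shGIV cells with LPS, 458 TPM in shC cells with LPS, 25.5, 28.2 and 25.2 TPM in shGIV cells without LPS and 23.6 and 28.9 TPM in shC cells without LPS. It rose by 4.07 ± 0.09 in shGIV cells and by 4.08 ± 0.13 in shC cells (adjusted p = 1.31e-08 and 3.56e-07). Trim25, the ligase known for acting on the RNA sensor RIG-I, changed least in this group, by 1.52 ± 0.10 and 1.82 ± 0.14.

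Of the membrane proteins and other restriction factors, Ifitm3, which hinders fusion of viruses in endosomes, and Bst2 (tetherin), which holds budding virus at the cell surface, were the most abundant members at rest. Ifitm3 had 2418, 2512 and 2433 TPM in shGIV cells with LPS, 2471 TPM in shC cells with LPS, 1183, 1291 and 1258 TPM in shGIV cells without LPS and 1131 and 1225 TPM in shC cells without LPS. It alone made up 10.6% of the members' summed level in shGIV cells and 10.9% in shC cells with LPS, against 43.9% in shGIV cells and 41.1% in shC cells without it. Ifitm3 rose by 0.98 ± 0.06 in shGIV cells and by 1.07 ± 0.08 in shC cells (log2, ± SE; adjusted p = 1.77e-06 and 2.75e-05), the smallest response in both. Rnf213, a very large ubiquitin ligase, rose by 3.13 ± 0.06 in shGIV cells and 3.34 ± 0.09 in shC cells (adjusted p = 7.31e-09 and 1.29e-07), the largest of this group. Samd9l, Rtp4 and Lgals3bp rose by 3.11 ± 0.11, 2.07 ± 0.12 and 1.86 ± 0.08 in shGIV cells.

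The remaining 7 genes rose by 2.15 (Tor3a) to 5.53 (Ifi204) in shGIV cells and by 2.33 to 5.05 in shC cells. Ifi204, a member of the nuclear DNA-binding p200 family, had 454, 375 and 429 TPM in shGIV cells with LPS, 428 TPM in shC cells with LPS, 9.69, 7.6 and 7.16 TPM in shGIV cells without LPS and 12.2 and 11.7 TPM in shC cells without LPS. The 3 shGIV libraries without LPS lay below both shC libraries. Ifi204 shares 34.6% of its 31-base words with other genes, mostly relatives in its cluster. Ifi44, Xaf1, Epsti1, Nmi and Ifi35 lay between these, at 2.65 to 3.61 in shGIV cells.

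Genes with lower resting levels had larger LPS responses. In shGIV cells the median response was 6.62 among the 11 genes under 10 TPM at rest, 3.27 among the 21 genes at 10 to 50 TPM and 2.11 among the 12 genes at 50 TPM or more. For the same genes in shC cells the medians were 5.95, 3.26 and 2.10. Across the 44 genes, resting level and response had Pearson's r of -0.74 in shGIV cells and -0.72 in shC cells, a description in which the resting level enters both values. Levels were less spread with LPS, since the highest and lowest group means differed 40.8-fold in shGIV cells with LPS and 39.6-fold in shC cells with LPS, against 1134-fold in shGIV cells and 936-fold in shC cells without it. Herc6 and Trim21 were exceptions among genes under 10 TPM, at 4.12 and 2.74 in shGIV cells, and Usp18 was one among those at 50 TPM or more, at 4.20.

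**Figure D3:**
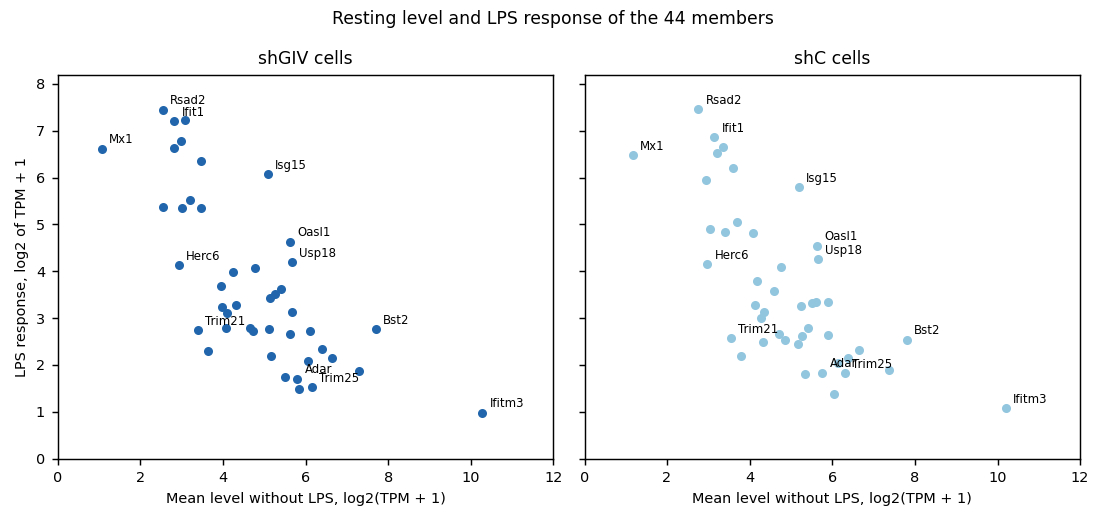
Mean level without LPS (log2(TPM + 1)) on the horizontal axis and LPS response (log2 difference) on the vertical axis for the 44 genes, shGIV cells left and shC cells right, with some genes named. Points fall from Rsad2 at the upper left to Ifitm3 at the lower right, with r of -0.74 and -0.72.

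Without LPS, 36 of the 44 genes differed between shGIV and shC cells by no more than 0.25 (log2), as did 77.9% of all genes tested. Oasl2 was the single member called lower and none was called higher, while of all genes tested 0.729% were called lower and 0.489% higher. Oasl2 had 11.3, 9.89 and 9.13 TPM in shGIV cells and 16.6 and 15.3 TPM in shC cells, and the groups did not overlap. Its difference was -0.61 ± 0.09 (log2, ± SE; 95% interval -0.83 to -0.39; limma adjusted p = 0.0295). The call was lost when any of 7 libraries was left out (shC replicates 1 and 3 and shGIV replicates 2 and 3 without LPS, and shGIV replicates 1, 2 and 3 with LPS), with Oasl2 at -0.67 to -0.55 and adjusted p at 0.0545 to 0.145 in those fits. Ifi204 was at -0.51 ± 0.13 (adjusted p = 0.146), Mx2 at -0.51 ± 0.17 (adjusted p = 0.268), Ifi47 at -0.40 ± 0.11 (adjusted p = 0.174) and Ifit1 at -0.32 ± 0.08 (adjusted p = 0.169). Mx2 had 6.51, 4.24 and 3.92 TPM in shGIV cells and 7.16 and 7.32 TPM in shC cells, and Ifi47 had 7.79, 7.52 and 5.96 TPM in shGIV cells and 9.99 and 9.24 TPM in shC cells. In both, every shGIV library lay below both shC libraries.

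Over the 44 genes, 35 differences without LPS were negative, with a median of -0.14 in shGIV against shC cells, beside 0.02 for all genes tested. The median was -0.07 without shC replicate 3 (27 negative) and -0.07 without shGIV replicate 3 (29 negative). With the left-out shC library added it was 0.57, and 43 of the 44 differences were positive, beside a median of 0.64 for all genes. All shGIV libraries lay below both shC libraries in 12 members, beside 12.7% of all genes. They lay above in 3 members, Oas2, Oas1g and Ifi35, beside 15.6% of all genes. The 95% intervals lay within ±0.5 for 33 of the 44 genes (75.0%), beside 63.0% of all genes tested, and within ±1 for all 44, so a change of 2-fold or more of TPM + 1 lay outside every member's interval. Of the 8 macrophage markers, Adgre1, Itgam and Fcgr1 were called lower in shGIV cells without LPS, at -0.67, -0.62 and -0.73 (limma adjusted p = 0.0162, 0.00764 and 0.0128). The other 5 were at -0.30 to 0.15 and were not called. Only Fcgr1 kept its call with the replicate number as a block, and none of the 3 with only those 2 groups in the model. The part of these markers in the members' values was not tested.

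With LPS, 38 of the 44 genes differed between shGIV and shC cells by no more than 0.25 (log2), as did 58.9% of all genes tested. Rnf213 was called lower, none was called higher, and of all genes tested 4.38% were called lower and 0.89% higher. Rnf213 had 468, 428 and 444 TPM in shGIV cells and 604 TPM in the shC library, below which all 3 shGIV values lay. Its difference was -0.44 ± 0.08 (log2, ± SE; 95% interval -0.63 to -0.25; limma adjusted p = 0.0278). Without LPS, Rnf213 had 51.9, 49.7 and 48.9 TPM in shGIV cells and 56.2 and 61.2 TPM in shC cells, a difference of -0.22 ± 0.06 (adjusted p = 0.214). The call with LPS was lost under TMM scaling (-0.28, adjusted p = 0.0612), under quantile normalization (-0.32, adjusted p = 0.0521), and when any of 4 libraries was left out (shGIV replicates 2 and 3 at either time), where Rnf213 had -0.44 to -0.41. Rnf213 (chr11:119393100-119487418, GRCm38, plus strand) overlaps the opposite-strand gene A930037H05Rik and shares 6.92% of its 31-base words with it, and the use of strand in counting is not given in the sources used here.

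Other members differed by up to 1.48-fold with LPS and did not pass the test. Isg20 had 636, 735 and 693 TPM in shGIV cells with LPS and 465 TPM in the shC library, with a difference of 0.56 ± 0.23 (95% interval 0.03 to 1.09; adjusted p = 0.205). Trim25 had 203, 222 and 188 TPM in shGIV cells and 276 TPM in the shC library, with a difference of -0.44 ± 0.13 (95% interval -0.75 to -0.12; adjusted p = 0.111). Isg20 thus lay above the shC value, and Trim25 below it, in all 3 shGIV libraries. Oas1g had 447, 489 and 430.1 TPM in shGIV cells and 373 TPM in the shC library, with a difference of 0.29 ± 0.09 (adjusted p = 0.109), and was called higher under TMM scaling (0.44, adjusted p = 0.0305). Parp14 was at -0.32 ± 0.10 (adjusted p = 0.111) and Ifit3 at 0.29 ± 0.15 (adjusted p = 0.314). Of the 44 genes, 11 lay above the shC value in all 3 shGIV libraries, beside 15.8% of all genes, and 7 lay below it, beside 48.7%.

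The median difference with LPS was -0.00 over the 44 genes, beside -0.12 for all genes tested. The shC library with LPS also differed in composition. Protein-coding genes held 81.7% of its TPM, against 74.1% to 77.0% in the shGIV libraries with LPS, and Mir6236 held 3.79%, against 4.85% to 7.27%. The part of this in the differences was not tested. Differences were positive for 21 and negative for 23 members, against 37 and 7 under TMM scaling and 35 and 9 under quantile normalization. Rescaling without the most abundant genes gave 37 positive and 7 negative. Under TMM scaling the medians were 0.16 for the members and 0.01 for all genes. The members' median thus lay 0.11 above that of all genes with the deposited scaling and 0.14 above it under TMM. The 95% intervals lay within ±0.5 for 32 of the 44 genes (72.7%), beside 36.0% of all genes tested, and within ±1 for 43, all but Isg20, whose interval reached 1.09. Of the 8 macrophage markers, Adgre1, Csf1r and Itgam were called lower in shGIV cells with LPS, at -0.73, -1.32 and -0.44 (limma adjusted p = 0.0146, 0.00142 and 0.0297). The other 5, Fcgr1 among them at 0.20, were at -0.50 to 0.20 and were not called. Only Csf1r kept its call with the block and with only those 2 groups in the model. The part of these markers in the members' values was not tested.

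**Figure D4:**
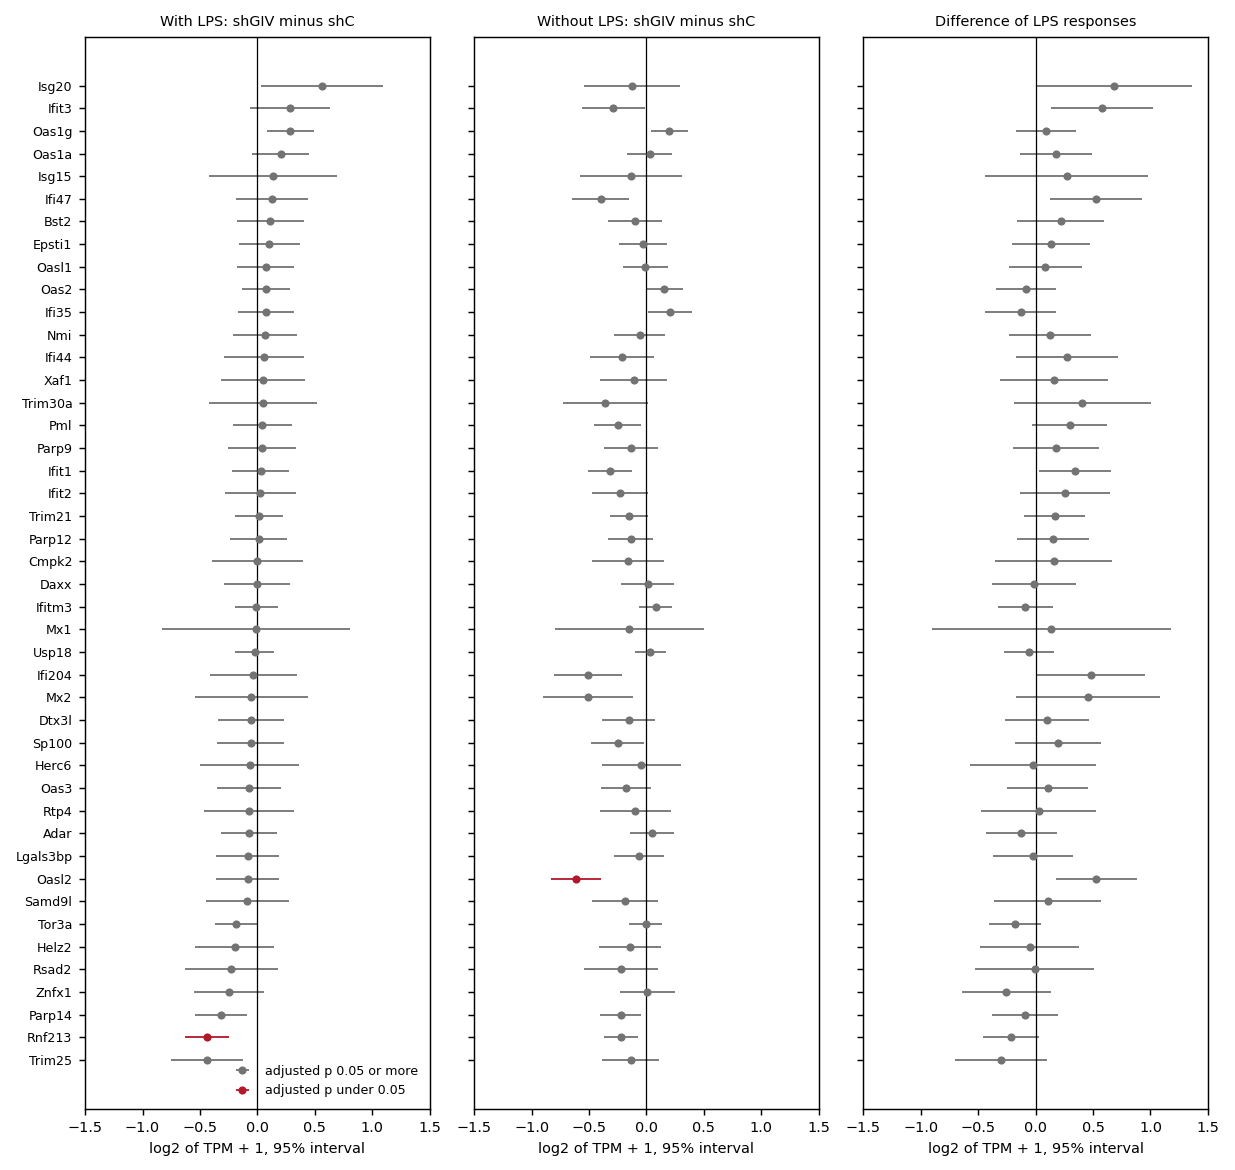
Differences between shGIV and shC cells for the 44 genes on the log2(TPM + 1) scale with 95% intervals: with LPS (left), without LPS (middle) and the difference of the LPS responses (right), ordered by the left panel. Red marks the calls at adjusted p under 0.05, Rnf213 with LPS and Oasl2 without; every other interval is grey.

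The difference of the 2 LPS responses, shGIV minus shC, was not called for any of the 44 genes by limma, and of all genes tested 0.0948% were called higher and 0.131% lower. An unadjusted limma p under 0.05 was found for 5 of the 44, beside 2374 of the 13711 genes tested. The largest were Isg20 at 0.68 ± 0.29 (95% interval 0.01 to 1.36; adjusted p = 0.283), Ifit3 at 0.58 ± 0.19 (95% interval 0.13 to 1.02; adjusted p = 0.196), Oasl2 at 0.53 ± 0.15 (adjusted p = 0.159) and Ifi47 at 0.53 ± 0.17 (adjusted p = 0.194). The lowest were Trim25 at -0.30 ± 0.17, Znfx1 at -0.26 ± 0.17 and Rnf213 at -0.22 ± 0.10. Differences were positive for 29 of the 44, with a median of 0.13, beside -0.15 for all genes tested. Under TMM scaling 40 were positive with a median of 0.27, beside -0.02 for all genes, under quantile normalization 38 with 0.25, beside -0.01, and under rescaling without the most abundant genes 40 with 0.28, beside -0.02. The median was 0.08 without shC replicate 3 without LPS and 0.05 without shGIV replicate 3 without LPS, and with the left-out shC library added it was -0.62, with 2 positive. These values use the same libraries as the comparisons of the lines at each time. Intervals lay within ±0.5 for 20 of the 44, so for most members a difference in response of that size was not resolved.

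The genes upstream of the set were described from lists of the same pathway. Of 13 interferon ligand genes, only Ifnb1 was expressed enough to be tested. Ifnb1 had 27.7, 26.1 and 25.5 TPM in shGIV cells with LPS, 14.3 TPM in the shC library with LPS, and at most 0.233 TPM in any library without LPS. It rose by 4.57 in shGIV cells and by 3.88 in shC cells, sizes that the added 1 TPM sets at such resting levels, since with a pseudocount of 0.1 both rises were larger, at 6.75 in shGIV cells and 6.74 in shC cells. All 3 shGIV libraries with LPS lay above the shC library. The difference with LPS was 0.84 (95% interval 0.53 to 1.15; limma adjusted p = 0.0162), and that of the responses was 0.69 (adjusted p = 0.118), or 0.01 with a pseudocount of 0.1 (adjusted p = 0.996). The call of Ifnb1 with LPS was lost without shGIV replicate 3 with LPS (0.87, adjusted p = 0.0541), with a pseudocount of 0.1 (0.88, adjusted p = 0.276), with the replicate number as a block (0.83, adjusted p = 0.0891) and with only those 2 groups in the model (0.84, adjusted p = 0.0521). The summed level of the 44 genes with LPS was 22671 to 23393 TPM in shGIV cells and 22751 TPM in the shC library, so the shC value lay within the shGIV range. As a share of protein-coding TPM the sum was 3.03% to 3.06% in shGIV cells with LPS. It was 2.79% in the shC library, below all 3 shGIV libraries, so the overlap depends on the scale.

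**Figure D5:**
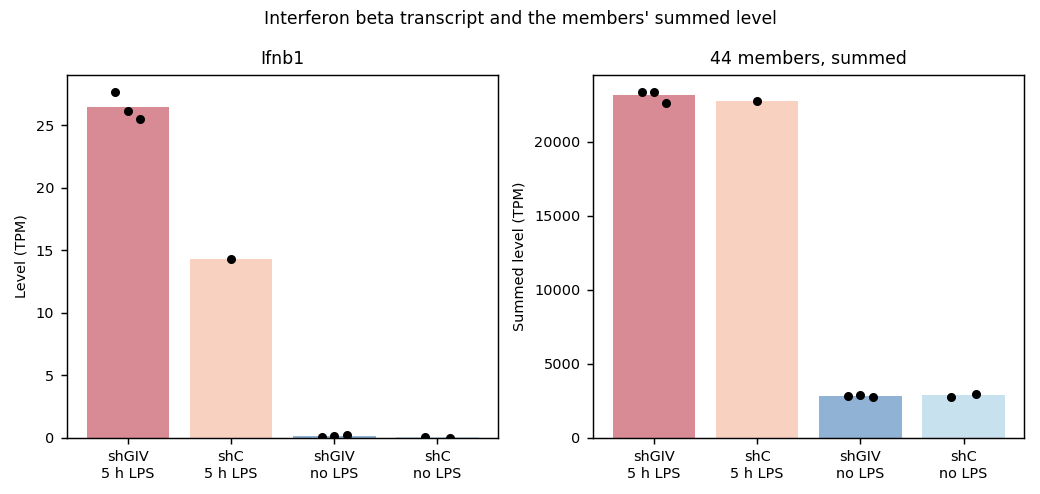
Level of the interferon beta gene Ifnb1 (left, TPM) and summed level of the 44 genes (right, TPM) in each library; bars are group means and points libraries. With LPS, Ifnb1 was at 25.5 to 27.7 TPM in shGIV cells and 14.3 TPM in the shC library, while the summed levels overlapped on the TPM scale.

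Of the 11 receptor and signalling genes tested, 6 rose and 3 fell with LPS in shGIV cells, and 5 rose and 3 fell in shC cells. Under TMM scaling 9 rose and 1 fell in shGIV cells, and 8 rose and 1 fell in shC cells. Jak2 and Stat2 rose most, by 3.26 and 3.05 in shGIV cells and by 3.11 and 3.19 in shC cells. The receptor chain Ifnar2 was at -0.50 in shGIV cells and -0.36 in shC cells with LPS, called lower in both, but at 0.08 and 0.07 and not called under TMM scaling. Between the lines, Il10rb, a chain shared by the receptors of interferon lambda and interleukin 10, was lower in shGIV cells with LPS (-0.39, limma adjusted p = 0.0402). That call held in 6 of 18 alternatives, and was lost under TMM (-0.24), quantile normalization (-0.20) and rescaling (-0.28), without the mean-variance trend, with the replicate number as a block, with only those 2 groups in the model and without any 1 of the shGIV libraries, with adjusted p up to 0.163. Of 13 genes between TLR4 and interferon, 8 rose and 4 fell in each line, with Irf7, which amplifies interferon expression, up by 4.59 in shGIV cells and 4.24 in shC cells and Tlr4 itself at -1.21 in shGIV cells and -1.19 in shC cells. None of these 13 was called between the lines by limma at either time.

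Of 10 RNA and DNA sensor genes, 8 rose and 1 fell with LPS in shGIV cells, and 7 rose and 2 fell in shC cells (8 and 1 under TMM scaling). Zbp1 rose by 6.21 and 5.94 and Ifih1, the RNA sensor MDA5, by 4.81 and 4.77 in shGIV and shC cells. Between the lines with LPS, 1 of the 10 sensor genes was called higher in shGIV cells by limma, beside 0.89% of all genes. Under TMM scaling 2 were called higher, and 0 with the replicate number as a block or with only those 2 groups in the model. No sensor gene was called lower with LPS, and none was called between the lines without LPS. Of 10 negative regulators, 5 rose and 4 fell in shGIV cells and 4 rose and 4 fell in shC cells, against 6 and 2 in shGIV cells and 5 and 2 in shC cells under TMM scaling. Socs3 rose by 7.51 and 7.02 and Socs1, which blocks the receptor kinases, by 2.83 and 2.44 in shGIV and shC cells. Socs1 had at most 0.466 TPM without LPS, and its rises were 4.37 and 3.68 with a pseudocount of 0.1. None of the 10 negative regulators was called between the lines by limma.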

How the data were processed

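Total RNA of RAW cells was sequenced from stranded libraries, with paired 100-base reads, per the labels' protocols. The authors deposited log2 values, log2(TPM + 1) per gene, for 52143 genes in 10 libraries. They were made with kallisto 0.45.0 on GRCm38, per the submitters' processing notes. The annotation release and the strand setting are not given in the sources used here. TPM are shares of a library, so a change in abundant RNA shifts all other values, and depth is unknown. The labels list 11 samples, and shC with LPS replicate 3 was not analysed here.

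Groups came from the sample titles, and the replicate number is the one that the titles call set. The 44 genes, the role groups and the pathway and marker lists were chosen with earlier results of these data known. One linear model of the 4 groups was fitted to the 9 libraries with limma 3.58.1 in R 4.3.3 (moderated variances with a mean-variance trend, 5 residual degrees of freedom). A gene was tested where 2 or more libraries reached 1 in log2(TPM + 1). The Benjamini-Hochberg adjustment ran over all genes of a comparison, and the threshold was 0.05. Errors of log2 differences are moderated standard errors. The script was tested on simulated data in which each group in turn was changed. The genes described with fold change and test were, in each comparison, the called member of each role group with the largest change in each direction and, between the lines, the largest differences over all members. Ifit2, Usp18, Herc6 and other members given by a value or range fill the role groups. Alternatives were a pseudocount of 0.1, no filter, a stricter filter, TMM, quantile and rescaling normalization, 2 other variance settings, only the 2 groups compared, the replicate number as a block, the left-out library added, and each library left out in turn. Using the left-out library in the Ccdc88a test was chosen after seeing the data. Gene positions and shared words of 31 bases came from GENCODE M21, and promoters from RefSeq. Figures were made with Python 3.11.15 and matplotlib 3.10.9. Some genes of the pathway lists are counted but not reported by name here.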

Additional observations from a re-analysis of the deposited data

How the results depend on the processing

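All 44 genes were called higher with LPS in both lines under every alternative run on the 9 libraries or fewer. With shC replicate 2 without LPS added, 20 were called in shC cells and 32 in shGIV cells, and the Ccdc88a difference was -0.27. The counts that follow are of shGIV against shC cells. Without LPS, the count of members called lower was 0 with no filter, without the mean-variance trend, with that library added and with only the 2 groups compared, and 0 to 2 when 1 library was left out (2 without shGIV replicate 1: Mx2 and Oasl2). With LPS, the count called lower was 0 under TMM and quantile scaling, without the trend, with the replicate number as a block, with that library added and with only the 2 groups compared, and 0 to 1 when 1 library was left out. The count called higher with LPS was 1 (Oas1g) under TMM scaling and under rescaling (to the TPM left after mitochondrial genes and the 100 most abundant ones were removed). Oasl2 without LPS and Rnf213 with LPS each kept their call in 9 of the alternatives, of 19 and 18, not counting the added library.

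With the added library, differences without LPS became 0.0202 for Oasl2, 0.52 for Ifi204, 0.00647 for Mx2, 0.55 for Ifi47, 0.43 for Ifit1 and 0.14 for Rnf213, and differences of the responses -0.38 for Ifit3, -0.11 for Oasl2 and -0.42 for Ifi47. Oasl2 with LPS was 0.0725 under TMM scaling and 0.0312 under rescaling. The cause was not tested.

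Deviations from the group means had correlations of -0.00 to 0.10 between same-numbered libraries of different groups. Between differently numbered ones they were -0.10 to 0.04. With the replicate number as a block, members called between the lines with LPS went to 0 and Rnf213 was at -0.47 (adjusted p = 0.0891), and Oasl2 without LPS kept its call. Calls between the lines over all genes were 83 with LPS, against 722 without the block, 58 against 167 without LPS, and 0 against 31 for the difference of the responses. The block also leaves fewer residual degrees of freedom than the 5 of the main model, and the part of this in the lower counts was not tested. Leaving out the shC library with LPS gives no value for 3 comparisons. TPM without read totals set no counting limit for low genes such as Mx1 at rest.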
